A study of Mus musculus with 6 samples.

Results

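The Ube2 genes encode the ubiquitin conjugating enzymes, called E2 enzymes. The family was taken here as all genes whose annotated symbol starts with Ube2, apart from 1 member that is not analysed here. By that rule 32 of 18193 genes were members, measured by 80 probe sets, and each gene was read from its brightest probe set over the 6 arrays, with the other 48 as a check. Levels were measured on 1-colour Affymetrix arrays in C57BL/6 mice, for which the labels name no transgene. The plasma cells (3 arrays) were B220- CD138+ cells of bone marrow, taken 7 days after a boost with the protein antigen KLH, enriched with beads against CD138 and sorted. The B cells (3 arrays) were B220+ CD23+ naive follicular cells of the spleen, for which no immunisation is named. Input was 50000 to 70000 plasma cells and 2000000 to 3000000 B cells, and neither the ages of the mice nor any pooling is given. Tissue, boost, bead enrichment and input went with the cell type, and their effects cannot be told apart from it. The level of the X-inactivation transcript Xist also largely went with it, apart from B cell array 1.

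An E2 enzyme receives activated ubiquitin, or a ubiquitin-like protein such as SUMO, NEDD8 or ISG15, from an E1 enzyme and passes it to a substrate, usually with the help of an E3 ligase. Which E2 acts decides much about the outcome, since some start chains, some extend them through a certain lysine and some serve a single ubiquitin-like protein. Several sit at the endoplasmic reticulum (ER), where they mark misfolded proteins for the proteasome, a pathway with a heavy load in cells that secrete antibody. The comparison asks which E2 transcripts differ between such cells and naive follicular B cells. Fewer cells of a type and less RNA per cell cannot be told apart in these bulk samples.

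Promoter sequences are shown for the ER-linked members, because these include Ube2j1, which had the largest log2 fold change among the members over background on all 6 arrays. RefSeq promoter windows (assembly GRCm38.p6, 250 bases before to 50 bases after a gene's start) were matched by symbol for 26 of the 32 members, with 35 windows in all. Ube2d2a, Ube2e3, Ube2g2, Ube2o, Ube2v2 and Ube2w had no entry. Each window was searched on both strands for the ER stress response element (ERSE: CCAAT and CCACG with 9 bases between them) and for UPRE (TGACGTGG), which belong to the unfolded protein response, for the shorter CCACG, which ERSE holds as written and UPRE holds in its reverse complement, and for the core of the interferon-stimulated response element (ISRE: GAAA and GAAA with 2 bases between them). Capitals mark matches. The windows below are chr4:33031130-33031429 (plus strand) for Ube2j1, chr11:72607011-72607310 (plus strand) for Ube2g1 and chr4:155943908-155944207 (plus strand) for Ube2j2, the latter being the window of this gene that holds a match.
Ube2j1: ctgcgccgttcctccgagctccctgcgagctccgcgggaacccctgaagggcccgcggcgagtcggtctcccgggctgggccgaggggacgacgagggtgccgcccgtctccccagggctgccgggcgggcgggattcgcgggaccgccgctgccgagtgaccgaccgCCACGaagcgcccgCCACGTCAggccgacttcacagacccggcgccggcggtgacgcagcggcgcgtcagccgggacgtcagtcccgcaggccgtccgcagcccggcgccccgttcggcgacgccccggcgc
Ube2g1: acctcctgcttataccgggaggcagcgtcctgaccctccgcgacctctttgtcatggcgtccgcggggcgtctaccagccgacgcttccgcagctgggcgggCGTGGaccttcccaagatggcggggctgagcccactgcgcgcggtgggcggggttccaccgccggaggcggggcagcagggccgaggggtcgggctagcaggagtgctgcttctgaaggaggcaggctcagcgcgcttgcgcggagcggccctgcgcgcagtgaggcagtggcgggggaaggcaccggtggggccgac
Ube2j2: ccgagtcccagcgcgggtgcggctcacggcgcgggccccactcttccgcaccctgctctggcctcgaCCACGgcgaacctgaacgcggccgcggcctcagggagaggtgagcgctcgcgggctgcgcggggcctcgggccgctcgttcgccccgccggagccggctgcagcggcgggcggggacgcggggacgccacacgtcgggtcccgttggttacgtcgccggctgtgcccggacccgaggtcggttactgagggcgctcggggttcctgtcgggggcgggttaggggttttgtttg
In the Ube2j1 window the letters CCACGTCA, the reverse complement of UPRE, began at −68 from the start, and a further CCACG began at −82. UPRE was found in 1 of the 35 member windows, that of Ube2j1, and in 222 of all 32851 windows (0.676%). CCACG was found in 18 member windows from 15 genes and in 32.8% of all windows, among them the windows of Ube2g1 (at −148) and Ube2j2 (at −183) shown above. ERSE was found in 0 member windows and in 0.119% of all, and the ISRE core in 0 member windows and in 3.44% of all. A match describes letters in the window and is neither a site nor a cause.

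Of the 32 members, 9 were higher and 4 lower in plasma cells at an adjusted p under 0.05 in limma, with values as log2(intensity + 16) and Benjamini-Hochberg adjustment over all genes. Those are 28.1% and 12.5% of the members, against 17.6% of all genes called higher and 12.3% called lower; in either direction it was 40.6% of the members against 29.9% of all genes. The members were mostly well measured, with 29 over the level of bacterial control probe sets on all 6 arrays, and of all 10719 genes measured that well 22.8% were called higher and 17.6% lower. The member shares are over all 32, including Ube2d2b, which was called higher but was not over that level on all 6 arrays. With these unlike sets, the members had a slightly larger share of higher and a smaller share of lower calls, and this difference was not tested. The median log2 fold change was 0.15 over the members and −0.06 over all genes, with a range among members from −1.45 (Ube2e2) to 3.47 (Ube2d2b). Called members with at least a 2-fold change were Ube2j1, Ube2g2, Ube2d2b and Ube2e3 on the higher side and Ube2e2 on the lower side, against 10.9% and 6.78% of all genes. All plasma cell arrays lay above all B cell arrays for 13 members and below them for 6, against 25.4% and 22.4% of all genes. Members thus moved in both directions, and 19 of the 32 were not called.

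**Figure D1:**
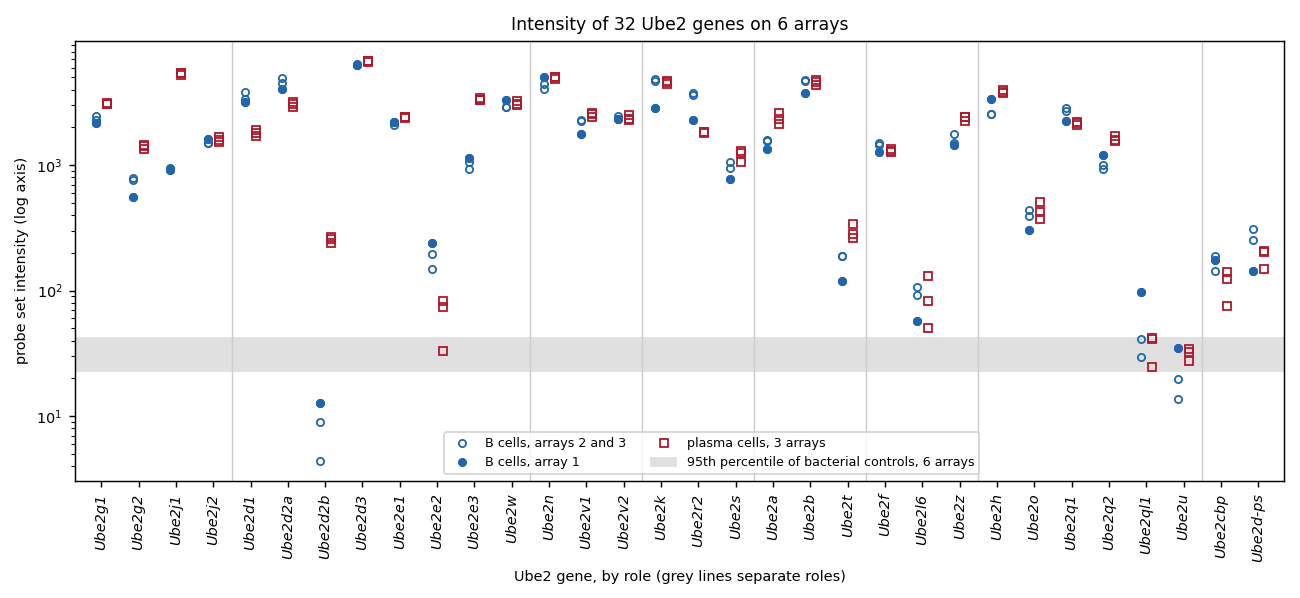
Probe set intensity (log axis) of the 32 Ube2 genes, grouped by role, with circles for the 3 B cell arrays (filled for array 1), squares for the 3 plasma cell arrays and a grey band for the 95th percentile of bacterial control probe sets over the 6 arrays. Ube2j1 and Ube2d2b show the widest gaps between groups, with Ube2d2b on all B cell arrays below the band, while most members overlap or lie close together; heights of different genes cannot be compared.

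B cell array 1 stood apart from the other B cell arrays. Its correlation with them over all probe sets was 0.934 and 0.926, where theirs with each other was 0.992, and it differed by at least 2-fold from their mean in 2709 genes upward (14.9%) and 818 downward (4.5%). Among the members only Ube2ql1, a dim gene, differed that much. The summed level of 14 T and NK cell markers was 7739 on that array and 1347 and 1375 on the other B cell arrays. On the plasma cell arrays it was 2797, 2434 and 5845, of which Il7r alone held 963, 559 and 2834. Of the 14, 1 was called higher (Cd4, at least 13.4-fold) and 0 lower, against 17.6% and 12.3% of all genes. Within background lay 2 of the 14 on all plasma cell arrays (Ncr1 and Gzmb) and 2 on all B cell arrays (Cd4 and Gzmb). Granulocyte markers (10 measured) summed to 12769 on B cell array 1, 2880 and 1872 on the other B cell arrays and 8601 to 20240 on the plasma cell arrays. Of these 10 markers 1 was called higher and 0 lower, against 17.6% and 12.3% of all genes. Of 7 dendritic cell markers 2 were called higher and 2 lower, against the same shares of all genes. They summed to 1514 to 1780 in B cells and 5607 to 6708 in plasma cells. Bst2 holds most of the plasma cell sum and was left out after the values were seen. Without it the sums were 649 to 728 and 618 to 1255. Of 10 monocyte and macrophage markers 2 were called higher (Mrc1 and Cd68) and 4 lower (Lyz2, Adgre1, Csf1r and Ccr2), against 17.6% and 12.3% of all genes. They summed to 6698 on B cell array 1, 4105 and 4491 on the other B cell arrays and 3674 to 4495 in plasma cells. The part of such cells in the members' values was not tested. The X-inactivation transcript Xist had 8070 to 8702 on the plasma cell arrays and 8408 on B cell array 1, against 30.8 and 18.1 on the other B cell arrays. A sex-linked difference is thus largely tied to cell type on the 6 arrays too, with only B cell array 1 apart. Without that array the 2 cannot be told apart at all. Without it 11 members were called higher and 5 lower, against 22.7% and 21.1% of all genes (43.7% in either direction). Those 16 held all 13 members called on 6 arrays, plus Ube2h, Ube2q1 and Ube2u. The defining markers followed the labels. On 6 arrays 7 of 7 plasma cell markers were called higher and 7 of 7 follicular B cell markers lower, against 17.6% and 12.3% of all genes.

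Of the 4 ER-linked enzymes 3 were called higher (Ube2j1, Ube2g2 and Ube2g1) and 0 lower, against 17.6% and 12.3% of all genes. Only Ube2j1 and Ube2g2 among them were called under all 16 alternative settings. Ube2j1, which is anchored in the ER membrane and works with the ligase Syvn1 in ER-associated degradation, had intensities of 5430, 5423 and 5275 on the plasma cell arrays and 918, 958 and 932 on the B cell arrays. All plasma cell arrays were more than 5-fold above every B cell array. The means were 5376 ± 87.8 (SD, n = 3) and 936 ± 20.2, which gave a log2 fold change of 2.50 ± 0.11 (SE, limma adjusted p = 5.73e-05). Its other probe set was at 4839, 5038 and 4922 in plasma cells and 315, 413 and 431 in B cells, a log2 fold change of 3.63 ± 0.16, so both probe sets showed the rise and its size depended on the probe set.

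Ube2g2, a soluble enzyme that is recruited to ER ligases and builds K48-linked chains, had 1413, 1462 and 1356 in plasma cells and 555, 787 and 765 in B cells. The groups were separate, with B cell array 1 the lowest. Its log2 fold change was 1.01 ± 0.17 (adjusted p = 0.00652), or 0.85 without B cell array 1, where it remained called (adjusted p = 0.00139). A dimmer probe set of Ube2g2 had a log2 fold change of 1.38 ± 0.15. Its relative Ube2g1 was at 3156, 3091 and 3093 in plasma cells and 2167, 2313 and 2448 in B cells, a smaller difference with separate groups (log2 fold change 0.43 ± 0.11, adjusted p = 0.0340). That call was lost when any single array except B cell array 1 was left out (adjusted p between 0.0659 and 0.126). Ube2j2, the other membrane-anchored member, was at 1584, 1540 and 1688 in plasma cells and 1622, 1503 and 1492 in B cells. These values overlapped, and the log2 fold change was 0.06 ± 0.11 (adjusted p = 0.738).

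The enzymes that start ubiquitin chains with many ligases, the D and E groups and Ube2w, changed in both directions. Of these 8, 2 were called higher and 3 lower, against 17.6% and 12.3% of all genes. Ube2d2b, a closely related copy of Ube2d2a, had 259, 269 and 240 in plasma cells and 12.7, 8.9 and 4.4 in B cells. Its level was over background on all plasma cell arrays and on 0 of the B cell arrays. The difference was at least 8.92-fold against the 95th percentile of the bacterial controls, and the fitted log2 fold change of 3.47 ± 0.16 (adjusted p = 7.34e-05) depends on the added constant. Its parent copy Ube2d2a went the other way, with 3057, 2923 and 3186 in plasma cells and 4069, 4991 and 4519 in B cells (−0.56 ± 0.13, adjusted p = 0.0215). How far the Ube2d2b probe set also responds to Ube2d2a was not tested, and these opposite directions are the measurement at hand. All 5 probe sets of Ube2d2a had negative log2 fold changes, from −0.41 to −1.12. Its call ended without any single array except B cell array 1 (adjusted p from 0.0577 to 0.0898).

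Ube2d1, another broadly acting member, had 1698, 1810 and 1922 in plasma cells and 3175, 3394 and 3805 in B cells. No values overlapped, and it fell (−0.93 ± 0.13, adjusted p = 0.00315). Ube2d3, the remaining measured enzyme of that group, was at 6801, 6747 and 6684 in plasma cells and 6285, 6237 and 6444 in B cells. The arrays were separate but the difference was small and not called (0.09 ± 0.11, adjusted p = 0.557), and the 7 probe sets of Ube2d3 lay between −0.24 and 0.29.

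Within the E group, whose members have extended N-terminal tails, the 3 genes differed from each other in direction. Ube2e3 had 3433, 3294 and 3282 in plasma cells and 1132, 1053 and 934 in B cells. Every plasma cell array was well above every B cell array, with a log2 fold change of 1.67 ± 0.12 (adjusted p = 0.000321), and its dimmer probe set had 1.53 ± 0.34. Ube2e2 was dim, at 73.8, 33.2 and 83.2 in plasma cells and 238, 150 and 196 in B cells. It fell without overlap (−1.45 ± 0.32, adjusted p = 0.0176), a call that was lost without B cell array 3 (adjusted p = 0.0585). Ube2e1 was at 2389, 2404 and 2400 against 2223, 2077 and 2213 and was not called (0.14 ± 0.11, adjusted p = 0.374). Ube2w, which can attach ubiquitin to the N-terminus of a protein, was at 2992, 3085 and 3272 in plasma cells and 3288, 2900 and 2904 in B cells. Its groups overlapped (0.04 ± 0.12, adjusted p = 0.826).

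**Figure D2:**
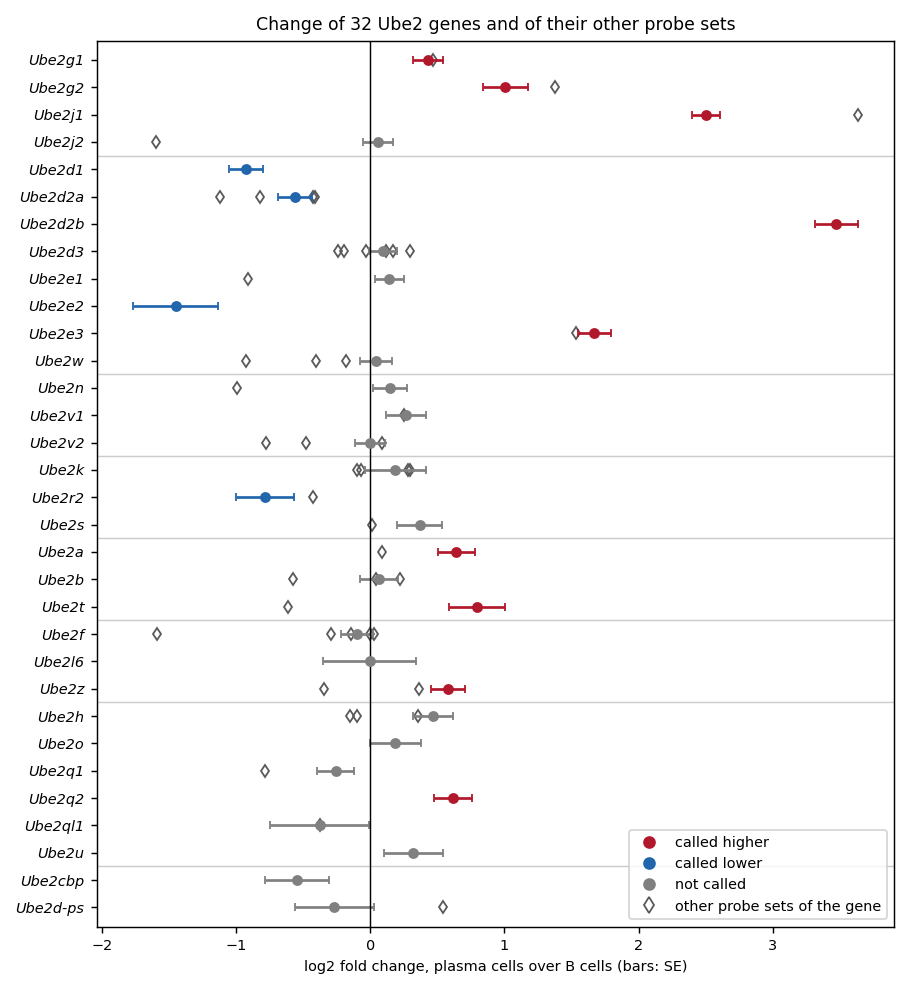
Log2 fold change of plasma cells over B cells for the 32 Ube2 genes (circles, bars for the SE, red called higher, blue called lower, grey not called) and for their other probe sets (diamonds), with grey lines between roles. Ube2d2b (3.47) and Ube2j1 (2.50) lie farthest to the right and Ube2e2 (−1.45) farthest to the left among the circles, and several grey circles near 0 have a diamond to their left.

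For the enzymes that build K63-linked chains, which act in immune signalling and DNA repair rather than degradation, 0 of 3 were called. Of all genes 29.9% were called in either direction. Ube2n, the catalytic subunit, was at 5023, 4824 and 5085 in plasma cells and 5018, 4043 and 4457 in B cells (0.15 ± 0.13, adjusted p = 0.443). Its catalytically inactive partner Ube2v1 was at 2400, 2567 and 2603 against 1773, 2261 and 2287 (0.27 ± 0.15, adjusted p = 0.231). The alternative partner Ube2v2 was at 2297, 2355 and 2489 against 2325, 2477 and 2333 (0.00 ± 0.11, adjusted p = 0.995). Of these only Ube2v1 had separate groups, by a margin smaller than the spread among the B cell arrays.

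Among members that extend other chains, Ube2r2, which serves cullin ligases, had 1800, 1854 and 1847 in plasma cells and 2296, 3657 and 3772 in B cells. It was lower on all plasma cell arrays (−0.78 ± 0.22, adjusted p = 0.0403), and B cell array 1 was far below the other B cell arrays. Leaving out that array gave −1.01 (adjusted p = 0.000693), whereas leaving out any other single array gave an adjusted p of 0.108 to 0.124. Ube2k, which builds K48-linked chains, was at 4442, 4570 and 4726 against 2845, 4831 and 4711. Only B cell array 1 was low, and the log2 fold change of 0.19 ± 0.23 became −0.06 without it, with neither called (adjusted p = 0.586 and 0.613). Ube2s, which elongates K11-linked chains for the anaphase-promoting complex, was at 1053, 1245 and 1302 against 774, 954 and 1060 and was not called (0.37 ± 0.17, adjusted p = 0.161).

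Members known from DNA repair and histone modification included 2 called higher of 3, where 17.6% of all genes were. Ube2t, the E2 of the Fanconi anaemia pathway, had 285, 260 and 339 in plasma cells and 120, 187 and 188 in B cells. The groups were separate (0.80 ± 0.21, adjusted p = 0.0338). Ube2a, a homologue of yeast RAD6, had 2125, 2327 and 2607 against 1357, 1572 and 1576 (0.64 ± 0.14, adjusted p = 0.0171). Its close relative Ube2b was at 4622, 4363 and 4803 against 3779, 4659 and 4813, with overlapping groups and no call (0.06 ± 0.14, adjusted p = 0.771). Other probe sets did not carry the calls of Ube2t and Ube2a: the dimmer Ube2t probe set, within background on all plasma cell arrays, was not called, nor was that of Ube2a (0.09 ± 0.13). With any single array except B cell array 1 left out, the adjusted p of Ube2t was 0.056 to 0.109, and that of Ube2a was 0.061 to 0.0664 without plasma cell array 2 or 3. Averaged over their probe sets, Ube2t had 0.09 (adjusted p = 0.717) and Ube2a 0.37 (adjusted p = 0.0719).

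Most proliferation markers moved in the same direction as Ube2t. Of 19 measured, 14 were called higher and 0 lower, against 17.6% and 12.3% of all genes. Among those with the widest change were Mki67 (log2 fold change 3.07) and Cdk1 (3.13). The 5 not called were Mcm2 (0.23), Pcna (0.10), Mcm3 (−0.095), Mcm5 (−0.44) and Tyms (−0.28). Their summed level was 30396 to 36361 on the plasma cell arrays and 11614 to 15055 on the B cell arrays, with the highest B cell value on array 1, and 0 of the 19 lay within background on all arrays of a group. Their part in the values of Ube2t, Ube2s or other members was not tested.

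Enzymes for ubiquitin-like proteins were incompletely covered, since the NEDD8 enzyme Ube2m, for example, was not analysed here. Ube2z, which is charged by the alternative E1 Uba6, had 2400, 2402 and 2255 in plasma cells and 1461, 1494 and 1764 in B cells. It was called higher with separate groups (0.58 ± 0.13, adjusted p = 0.0186), but its other probe sets had log2 fold changes of 0.36 and −0.35, neither called, and the call was lost without B cell array 2 or any 1 plasma cell array (adjusted p between 0.0519 and 0.0804). Ube2f, which transfers NEDD8 to a subset of cullins, was at 1296, 1345 and 1275 against 1283, 1489 and 1439 (−0.10 ± 0.12, adjusted p = 0.571). Ube2l6, which transfers ISG15 and is induced by interferon, was at 82.8, 132 and 50.3 against 57.4, 107 and 91.9, fully overlapping (−0.0023 ± 0.35, adjusted p = 0.997). It was dim, with background at 41.8 on plasma cell array 3 and 40.6 on B cell array 1, so it gave little information. In the same arrays 7 of 10 interferon-induced markers were called lower in plasma cells and 0 higher, against 12.3% and 17.6% of all genes. Their summed levels were 2120 to 3116 in plasma cells and 5453 to 8629 in B cells.

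Of 6 members with other or less defined roles, 1 was called, where 29.9% of all genes were. Ube2q2 had 1699, 1564 and 1574 in plasma cells and 1208, 935 and 1011 in B cells, with separate groups (0.62 ± 0.14, adjusted p = 0.0208). It too lost its call without any single array except B cell array 1 (adjusted p from 0.0628 to 0.0895). Its relative Ube2q1 was at 2181, 2091 and 2203 against 2242, 2855 and 2691, lower but not called (−0.26 ± 0.14, adjusted p = 0.218), and was called lower without B cell array 1 (−0.36, adjusted p = 0.0233).

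Ube2h and Ube2o are E2 enzymes known for high levels in maturing red cells. Ube2h was at 3818, 3780 and 4007 in plasma cells and 3343, 2571 and 2538 in B cells, with B cell array 1 the nearest to the plasma cells. It was not called (0.47 ± 0.15, adjusted p = 0.0651) but was called without that array (0.60, adjusted p = 0.00394). The other probe sets of Ube2h had log2 fold changes of 0.36, −0.15 and −0.10 and were not called. Ube2h was called under 5 of the 16 alternative settings, with log2 fold changes from 0.14 to 0.60 and a limma adjusted p up to 0.491. Ube2o was at 424, 374 and 510 against 307, 396 and 443 and overlapped (0.19 ± 0.19, adjusted p = 0.513). Of 9 measured erythroid markers 0 were called by limma, where 29.9% of all genes were. An unadjusted limma p under 0.05 was found for 7294 of all 18193 genes and for 0 of these 9 markers. Their summed level was 5392 on B cell array 1, 3808 and 4088 on the other B cell arrays and 2241 to 4727 on the plasma cell arrays. Most of that sum is Tfrc, a transferrin receptor not limited to red cells, and without it, a choice made after the values were seen, the other 8 summed to 1854 on B cell array 1, 226 and 281 on the other B cell arrays and 350 to 629 on the plasma cell arrays. Rhag lay within background on all plasma cell arrays and Klf1 on all B cell arrays. Slc4a1, the red cell anion exchanger, was at 1158 on B cell array 1, 18.4 and 37.3 on the other B cell arrays and 277, 327 and 143 on the plasma cell arrays. The part of red cell RNA in the level of Ube2h was not tested.

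The dimmest members gave little information. Ube2u was at 27.7, 32.5 and 34.1 in plasma cells and 35, 13.8 and 19.8 in B cells, within background on all B cell arrays and on 1 plasma cell array. It was not called (adjusted p = 0.328), although it was called without B cell array 1 (adjusted p = 0.0225), where the B cell values are within background. Ube2ql1 was at 24.5, 41.2 and 42.2 against 98.3, 29.4 and 40.9 and was high on B cell array 1 alone (−0.38 ± 0.37, adjusted p = 0.497; 0.01 without that array). Outside the role lists, Ube2cbp, which is named as an E2-binding protein rather than an E2, was at 125, 75 and 141 against 176, 188 and 144 (−0.54 ± 0.24, adjusted p = 0.148). The pseudogene Ube2d-ps was at 207, 202 and 150 against 144, 255 and 309 (−0.27 ± 0.29, adjusted p = 0.547).

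The value of a member often depended on the probe set. Of 24 members with several probe sets, 11 had log2 fold changes of 1 sign and 13 of both signs. In a fit over all probe sets, 3 of the 48 other probe sets were called higher (Ube2j1, Ube2g2 and Ube2e3) and 8 lower, and 37 were not called, where 13.4% of all 45037 probe sets were called higher and 12.8% lower. The 8 lower ones included 2 of Ube2d2a, in the direction of its brightest probe set. The remaining 6 belonged to Ube2j2, Ube2f, Ube2n, Ube2w, Ube2e1 and Ube2q1, genes whose brightest probe set was not called. For Ube2j2 the dimmer probe set was at 107, 135 and 115 in plasma cells and 498, 325 and 365 in B cells, a clear separation (−1.60 ± 0.20, adjusted p = 0.00240) where the brightest one overlapped. That of Ube2f was at 76.0, 60.3 and 91.2 against 319, 231 and 232 (−1.59 ± 0.20, adjusted p = 0.00264), and that of Ube2n at 336, 275 and 384 against 617, 687 and 709 (−0.99 ± 0.17, adjusted p = 0.00736). The plasma cell values were the lower ones in each case. For Ube2w the values were 366, 288 and 307 against 644, 577 and 643 (−0.93 ± 0.15), for Ube2e1 549, 572 and 671 against 1196, 1000 and 1218 (−0.91 ± 0.15), and for Ube2q1 926, 887 and 961 against 1381, 1719 and 1740 (−0.79 ± 0.15). When all probe sets of a gene were averaged, Ube2j2 (−0.77, adjusted p = 0.00799) and Ube2n (−0.42, adjusted p = 0.0479) turned to called lower, and the members called were 6 higher and 7 lower, against 16.5% and 12.9% of all genes. Which transcripts each probe set reads was not tested.

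**Figure D3:**
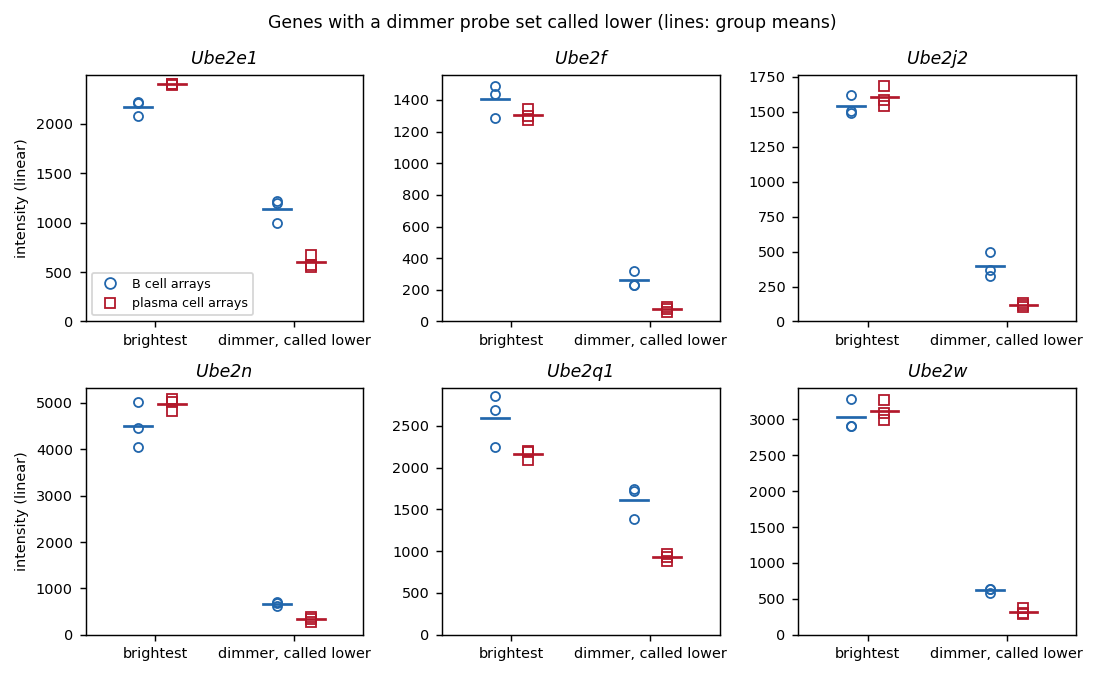
Intensity (linear axis from 0) on the 3 B cell arrays (blue circles) and 3 plasma cell arrays (red squares) for the brightest probe set and for a dimmer probe set called lower, in the 6 Ube2 genes where they differed in call, with lines at group means. In Ube2j2 the brightest probe set overlaps between groups while the dimmer one is at 107 to 135 in plasma cells and 325 to 498 in B cells.

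Partners of the E2 enzymes were read from lists ordered by role. The counts called on all 6 arrays in each list stand against 17.6% of all genes called higher and 12.3% called lower. Of 7 measured E1 enzyme genes, which activate the modifiers, 0 were called higher and 1 lower, with a median log2 fold change of −0.29. Without B cell array 1, 4 were called lower, where 21.1% of all genes were. The gene called on all 6 arrays was Nae1, a subunit of the NEDD8 E1, at 1093, 1089 and 1093 in plasma cells and 2139, 2351 and 2559 in B cells (−1.09 ± 0.12, adjusted p = 0.00134). Its partner subunit Uba3 was not called (0.01 ± 0.11, adjusted p = 0.948). Of 6 measured modifiers 3 were called higher and 0 lower, but the ubiquitin genes themselves were not analysed here. Ufm1, a ubiquitin-like protein that acts at the ER, had 3050, 3091 and 3303 against 1033, 905 and 862 (1.74 ± 0.13, adjusted p = 0.000285). Ubl5 (0.67 ± 0.13) and Sumo3 (0.62 ± 0.11) rose by less, and each call was lost without some single array, Ubl5 without plasma cell arrays 2 or 3 (adjusted p up to 0.0589) and Sumo3 without plasma cell array 1 (0.0527). Sumo3 was read from a probe set of the _s_at kind and had 0.26 without _x_at and _s_at probe sets and 0.44 (adjusted p = 0.0642) with its probe sets averaged, and was called under neither.

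The ER ubiquitin ligases and their cofactors, the partners of Ube2j1 and Ube2g2, had 18 of 26 measured members called higher and 1 lower. Of all genes 17.6% were called higher and 12.3% lower. The median log2 fold change of the list was 0.98. Derl3, a channel-associated factor, led with 5.95 ± 0.11, followed by the lectin Erlec1 (2.49 ± 0.12; 0.93 with its probe sets averaged) and the ligase scaffold Sel1l (2.01 ± 0.14; 3.85 with its probe sets averaged). The ligase Syvn1 itself rose less, at 6229, 5773 and 5652 against 3293, 4119 and 4020 (0.63 ± 0.14, adjusted p = 0.0181), a call that was lost without any 1 plasma cell array (adjusted p up to 0.0811). Rnf145 was the member that fell (−0.53 ± 0.13), and its call was lost without any array other than B cell array 1 (adjusted p up to 0.0795). With 1 array left out in turn, 15 to 19 members of the list were called higher and 0 to 3 lower. The 3 lower ones were called without B cell array 1, where 21.1% of all genes were called lower and 22.7% higher.

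Ligases and readers of K63 and linear chains, the partners of Ube2n and of the D group, leaned the other way, with a median of −0.35. Of 18, 2 were called higher and 7 lower, against 17.6% and 12.3% of all genes. Traf5, a signalling adaptor, fell most, at 285, 332 and 324 in plasma cells and 1894, 2869 and 2998 in B cells (−2.96 ± 0.21, adjusted p = 0.000263). All 3 subunits of the linear chain ligase were called lower, namely Rbck1 (−0.998 ± 0.19), Rnf31 (−0.92 ± 0.23) and Sharpin (−0.68 ± 0.19). The calls of Rnf31 and Sharpin were lost without any array other than B cell array 1 (adjusted p up to 0.110 and 0.138). Those of all 3 subunits were lost after median centring, where 1 gene of the list was called lower and 0 higher. Over all 18193 genes that setting called 1243 lower and 2588 higher. The deubiquitinases Tnfaip3 (0.52 ± 0.14) and Cyld (0.50 ± 0.12), which trim such chains, were called higher, while Otulin, the deubiquitinase of linear chains, was called lower (−0.79 ± 0.11, adjusted p = 0.00347) and lost that call after median centring alone (adjusted p = 0.0969). The calls of Tnfaip3 and Cyld were lost without any plasma cell array or B cell array 2, and that of Tnfaip3 also without B cell array 3 (adjusted p up to 0.125 and 0.0969). Over the fits with 1 array left out, 5 to 10 genes of the list were called lower and 0 to 2 higher. Over all 18193 genes the same fits called 1347 to 3830 lower and 2224 to 4121 higher.

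Among 24 genes of the cullin ligases and the NEDD8 cycle 4 were called higher and 2 lower, against 17.6% and 12.3% of all genes. With 1 array left out the counts were 2 to 7 and 1 to 5, the most without B cell array 1. Without that array 22.7% of all genes were called higher and 21.1% lower. The median was 0.09. The substrate receptor Fbxw7 had 7631, 7400 and 7279 in plasma cells and 2359, 2160 and 2370 in B cells (1.69 ± 0.11, adjusted p = 0.000209). The RING subunits went apart: Rnf7, the RING partner of Ube2f, was higher (0.76 ± 0.12, adjusted p = 0.00570) and Rbx1, the RING partner of Ube2m, was lower (−1.16 ± 0.24, adjusted p = 0.0151). Rbx1 was dim, at 44.8, 76.4 and 82.6 in plasma cells and 208, 141 and 159 in B cells. Its log2 fold change was −1.3 with an added constant of 1 and −0.83 with 64. The call of Rbx1 was lost with the replicate number as a block (limma adjusted p = 0.0594). Cul7 (0.55 ± 0.14) and Cul5 (−0.49 ± 0.13) were also called, and the call of Cul5 was lost without any array other than B cell array 1 and that of Cul7 likewise except for plasma cell array 2 (adjusted p up to 0.116 and 0.127). Cdc34, the relative of Ube2r2, was at 2054, 2331 and 2422 against 818, 1455 and 1555, opposite in direction to Ube2r2 but not called (0.87 ± 0.27, adjusted p = 0.0551).

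The remaining lists were mixed. For SUMO ligases and proteases 2 of 14 were called higher and 2 lower, near the shares over all genes (17.6% and 12.3%). The widest changes were those of the ligase Nsmce2 (1.88 ± 0.12, adjusted p = 0.000186) and the protease Senp7 (−1.44 ± 0.11, adjusted p = 0.000365). Among RAD6 and N-end rule ligases, which pair with Ube2a and Ube2b, 2 of 9 were called higher and 2 lower, against the same shares. Ubr3 had 6751, 6762 and 6130 in plasma cells and 1415, 1876 and 1891 in B cells (1.92 ± 0.16, adjusted p = 0.000446; 1.12 with its probe sets averaged). The calls of Ubr7 (0.72 ± 0.18), Ubr2 (−0.67 ± 0.16) and Rad18 (−0.66 ± 0.18) were lost without any array other than B cell array 1 (adjusted p up to 0.107, 0.0967 and 0.124), and with probe sets averaged Ubr2 had −0.033 and Rad18 −0.17. In the ISG15 cycle Usp18, which removes ISG15 and is also among the interferon-induced markers, was called lower (−1.19 ± 0.17, adjusted p = 0.00377), and its E1 Uba7 and its ligase Herc6 were not (adjusted p = 0.361 for Uba7 and 0.6 for Herc6).

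**Figure D4:**
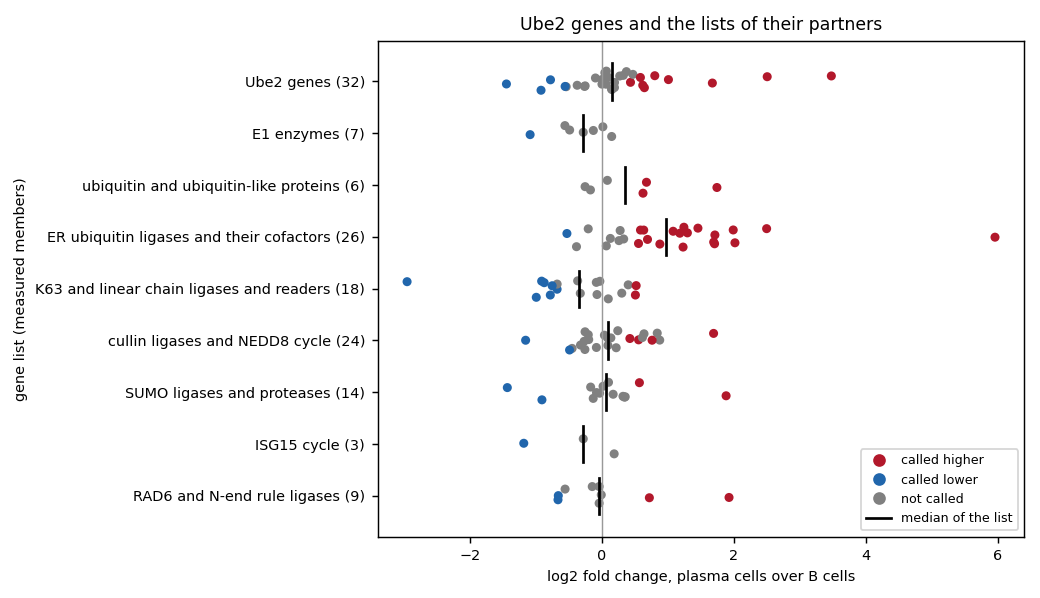
Log2 fold change of plasma cells over B cells for the 32 Ube2 genes and for the measured members of 8 lists of their partners (points, red called higher, blue called lower, grey not called), with a black line at each list's median. The ER list has its median at 0.98, against 0.15 for the Ube2 genes and −0.35 for the K63 and linear chain list.

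Under the 16 alternative settings, the 4 members called on every fit were Ube2j1, Ube2d2b, Ube2e3 and Ube2g2, all higher in plasma cells. The log2 fold change ranged from 2.44 to 3.07 for Ube2j1, from 1.60 to 1.79 for Ube2e3 and from 0.85 to 1.19 for Ube2g2. It ranged from 2.14 to 4.83 for Ube2d2b, whose value follows the added constant. Ube2d1 lost its call after median centring alone (adjusted p = 0.0621), a setting that also ended those of Ube2a, Ube2d2a, Ube2g1, Ube2r2, Ube2t and Ube2z.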

How the data were processed

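Per the labels' protocols, RNA was amplified (NuGEN Ovation V2) and biotin-labelled. The authors deposited linear intensity values, 1 per probe set and array; the sources used here do not give the summarisation, background correction or normalization behind them. Of 45101 probe sets, 64 are controls, and the platform annotation of 2016 gives 34945 of them 1 symbol, 932 several and 9160 none. Entrez identifiers matched 34741 to current symbols (RefSeq table of GRCm38.p6). Each gene took its probe set with the highest mean log2(intensity + 16). Plasma cells were compared with B cells with limma 3.58.1 in R 4.3.3 over 18193 genes, with Benjamini-Hochberg adjustment and a threshold of 0.05; the call rule needs no minimum fold. The procedure was tested on simulated data. Background is the 95th percentile of 27 bacterial control probe sets, from 23.0 to 41.8 on the 6 arrays, and "at least" folds use it without the added constant. Whether the replicates are separate animals is not stated, so p-values cover only the spread among these samples, possibly a technical one, and 3 arrays a group limit the precision. Equal replicate numbers do not pair the arrays (correlations of deviations 0.0484, 0.00469 and 0.0458). Promoter windows were searched for ERSE, UPRE, CCACG and the ISRE core. Members, lists and named genes (every member, and up to 3 called genes in the main and 2 in the other direction of a partner list, by size of change) were chosen with earlier results of these data known. Genes named outside that rule, such as Uba3, Syvn1, Otulin, Sharpin, Cdc34, Mki67, Cdk1, Uba7 and Herc6, were chosen after their values were seen. Ube2l3, with 4 probe sets of several symbols, and protein sequences were not analysed here.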

Additional observations from a re-analysis of the deposited data

How the results depend on the processing

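Of 13 called members, 4 kept the call under all 16 alternatives and 9 lost it under at least 1, while 6 others were called under at least 1. Averaging all probe sets of a gene gave 7 lower members and a median log2 fold change of the members of 0.0613, and turned Ube2j2 (−0.77) and Ube2n (−0.42) to the opposite sign. Median centring moved the median log2 fold change of all genes from −0.06 to 0.06. It gave 5 higher and 1 lower members, a member median of 0.263, and 2588 higher and 1243 lower genes in all. Array weights gave 4840 higher and 4654 lower genes, with 18 members called. With the replicate number as a block, which does not pair these arrays, 5 members were called higher and 2 lower. Over all 18193 genes that fit called 2457 higher and 1664 lower. With 1 array left out in turn, 4 to 11 members were called higher and 1 to 5 lower, and over all genes 2224 to 4121 were higher and 1347 to 3830 lower, the most without B cell array 1 in each case. Leaving out that array or giving it the low weight of 0.0938 goes with more calls; the cause was not tested. Pseudocounts of 1 and 64, the filter on dim genes, leaving out _x_at and _s_at probe sets, quantile normalization and a trended prior kept each count of called members within 1.5 times. Signs of 10 uncalled members (Ube2b, Ube2d-ps, Ube2d3, Ube2e1, Ube2f, Ube2k, Ube2l6, Ube2ql1, Ube2v2 and Ube2w) turned under some settings, without a call. Background limits Ube2d2b, Ube2u and Ube2ql1, and Ube2l6 lay near it on some arrays.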
